A study of Mus musculus with 35 samples.

Results

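A set of 10 genes of the microtubule system was followed across sorted spinal cord microglia of a mouse model of TDP-43 disease: the alpha-tubulin genes Tuba1a, Tuba1b, Tuba1c and Tuba4a, the beta-tubulin genes Tubb2a, Tubb2b, Tubb4b, Tubb5 and Tubb6, and Stmn1, the gene of stathmin. These members, 10 of the 45706 genes in the deposited tables, were picked from the measured values, because Tuba1a was lower in late disease and Tubb4b was higher in recovery. The late disease and recovery values of all members are therefore given as a description, with no p-value, in the contrasts that led to the choice. All 10 members passed the filter on low counts.

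Microtubules are hollow polymers of alpha- and beta-tubulin dimers, which carry cargo, shape cell processes and form the mitotic spindle. Each subunit is made from several genes whose products, the isotypes, are close in sequence and differ most in their acidic tails. Stathmin binds free tubulin dimers and promotes depolymerisation, and it is abundant in dividing cells. Cells hold their supply of tubulin level by a feedback in which newly made tubulin peptides are recognised at the ribosome and their mRNA is degraded when free dimers are in excess. Microglia survey the tissue with thin, moving processes and retract them when they are activated.

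The study used rNLS8 mice, which carry the tTa transactivator under the promoter of NEFH, a neuronal neurofilament gene, and a tetO-208-hTDP43 transgene. The promoter is neuronal, whereas the cells measured are microglia sorted on CD11b and CD45. Doxycycline (DOX) in the diet silences the transgene. All mice were of mixed C57BL/6J X C3HeJ F1 strain and were kept on DOX until 8 to 12 weeks of age. Early disease stands for 7 libraries of rNLS8 mice without DOX for 2 weeks, late disease for 7 of rNLS8 mice without it for 6 weeks, and recovery for 7 of rNLS8 mice without it for 6 weeks and back on it for 1 week. The 14 controls were 6 libraries of rNLS8 mice continuously on DOX and 8 of wild-type (WT) littermates, of which 3 were 6 weeks off and 1 week on DOX, 1 was 6 weeks off and 4 were 2 weeks off. The labels do not say whether each library came from a single mouse, so the tests measure the spread between libraries, and samples that the design lists beyond these 35 were not analysed here.

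Depth, as the sum of the authors' expected counts (fragments estimated for each gene), lay between 13.9 and 20.4 times 1000000 in every library. Sample titles carry a prefix that differs between sets of libraries. All recovery libraries have the prefix 0803, the 6 rNLS8 controls and the 3 WT controls returned to DOX have 0810, and late, early and the 5 other WT libraries share 1019, 1102 and, without controls, 1130. Recovery and prefix cannot be told apart. The share of TPM (a level per transcript length that sums to 1000000 in a library) outside the deposited table was 13.9 to 30.8% in the 9 libraries of prefix 0810 and 2.32 to 11.4% in the 26 others. Microglial genes dominated every group, and summed CPM (counts per 1000000) of 10 microglial markers ran from 45230 to 64760 in late disease and from 57460 to 72220 in controls. The late disease library 6 stood apart in some of these markers: P2ry12, Cx3cr1 and Sall1 were at 1709, 1171 and 141.9 CPM there, against at least 5409, 5141 and 503.8 CPM in the 6 other late libraries. It did not stand apart in the sum of all 10, which was 45710 CPM there and 45230 CPM in late library 1. Tubb3, the neuronal beta-tubulin gene, was at 0 in all controls and at most 0.246 CPM in any library, and Stmn2, the neuronal stathmin gene, at most 0.200 CPM. The 14 neuron markers summed to 2.78 to 14.03 CPM in controls and 3.24 to 8.54 CPM in late disease. Of 4 tested, Eno2 was called higher in late disease (log2 change 2.05 ± 0.70), as were 9.01% of all genes. The 7 astrocyte markers summed to 218 to 1826 CPM in controls and 182 to 2731 CPM in late disease. The part of such RNA in the tubulin values was not tested.

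The coding sequences show why some members are measured less surely than others. The first 30 coding bases of each gene, from GENCODE transcripts on GRCm38, are given below, with the opening codons that encode the peptide read by the tubulin feedback in capitals.
Tuba1a: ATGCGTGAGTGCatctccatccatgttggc
Tuba1b: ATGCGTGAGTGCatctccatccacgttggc
Tuba1c: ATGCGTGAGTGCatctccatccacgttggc
Tuba4a: ATGCGCGAGTGCatttcagtccatgtgggg
Tubb2a: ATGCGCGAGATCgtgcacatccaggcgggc
Tubb2b: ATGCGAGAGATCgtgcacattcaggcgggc
Tubb4b: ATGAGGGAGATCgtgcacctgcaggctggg
Tubb5: ATGAGGGAAATCgtgcacatccaggccgga
Tuba1a, Tuba1b and Tuba1c opened with identical capitals, and Tuba1b and Tuba1c with identical runs of 30 bases.

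Over whole coding sequences, Tuba1a and Tuba1b shared 98.3% of aligned bases, Tuba1a and Tuba1c 97.1%, and Tuba1b and Tuba1c 97.9%, with a longest run shared by Tuba1b and Tuba1c of 468 bases. Tuba4a shared 84.7% with Tuba1a and no run longer than 29 bases. Among the beta members, Tubb2a and Tubb2b shared 96.5% and a run of 551 bases, whereas Tubb4b and Tubb5 shared 82.3%. Reads within such runs fit several genes, and the authors' software divided them by estimation. Of the deposited values of Tuba1a, Tuba1b, Tuba1c and Tubb2a, 0% were whole numbers (within 1e-06), against 85.7% for Tubb6 and for Stmn1. The share was also low for Tubb5 (2.9%), Tubb2b (5.7%), Tubb4b (8.6%) and Tuba4a (25.7%). Division by estimation was therefore not confined to the closest copies. The split between Tuba1a, Tuba1b and Tuba1c, and between Tubb2a and Tubb2b, is therefore uncertain, and their sums are given beside the single genes.

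The genes lie apart on the genome except for 2 clusters (GRCm38). Tuba1b (chromosome 15, 98931425 to 98934565, minus strand), Tuba1a (98949837 to 98953703, minus strand) and Tuba1c (99029891 to 99038110, plus strand) are neighbours, as are Tubb2a (chromosome 13, 34074274 to 34078007) and Tubb2b (34126748 to 34130466), both on the minus strand. Tuba4a is on chromosome 1 (75214228 to 75219865), Tubb4b on chromosome 2 (25222160 to 25224702), Stmn1 on chromosome 4 (134468320 to 134473843) and Tubb5 on chromosome 17 (35833921 to 35838306). All are annotated as protein coding. Tuba4a overlaps Stk16 on the other strand, and Tubb4b overlaps Fam166a. Gm49450, annotated as protein coding on the same strand, overlaps both Tuba1a and Tuba1b, and the antisense gene Gm41396 overlaps Tuba1b; neither was analysed here. The miRNA gene Gm23634 within Stmn1 was at 0 in every library. Reads from an overlap of opposite strands cannot be told apart without strand information, and strand would not separate Gm49450 from Tuba1a or Tuba1b. Fam166a was at most 0.216 CPM in any library, and Stk16 had medians of 16.3 CPM in late disease, 18.9 CPM in recovery and 17.8 CPM in controls.

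Tuba1b was the most abundant member per length, at 741 ± 128 TPM over all libraries (SD, n = 35), followed by Tuba1a at 387 ± 98.7 TPM. Tubb2a at 106 ± 55.1 TPM and Tubb5 at 98.4 ± 20.98 TPM came next and differed by less than their spread. Tubb4b followed at 65.4 ± 14.5 TPM, below Tubb5 by 1.57 times the larger SD. Tuba1c at 63.4 ± 25.3 TPM and Stmn1 at 47.0 ± 31.7 TPM came after it with steps smaller than the spread. Tubb6 at 23.5 ± 8.33 TPM, Tuba4a at 16.8 ± 9.95 TPM and Tubb2b at 9.46 ± 6.43 TPM were lowest, again without steps larger than the spread. The gaps from Tuba1b to Tuba1a and from Tuba1a to Tubb2a were 2.78 and 2.85 times the larger SD.

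The first question was which members differed in late disease, after 6 weeks of transgene expression. Tuba1a (ENSMUSG00000072235.5), an alpha-tubulin gene best known from growing neurons, had a lowest, median and highest level of 85.4, 233 and 291 CPM in the 7 late libraries, against 277, 402 and 632 CPM in the 14 controls. Late disease averaged 204 ± 70.2 CPM and controls 428 ± 96.8 CPM (SD). Of the late libraries, 6 lay below every control, and library 6 was the lowest of all. The log2 change was −1.06 ± 0.16 (SE). In bulk libraries fewer cells of a type and less RNA per cell cannot be told apart. Tuba1b, the main alpha-tubulin gene of these cells, ranged from 336 over a median of 599 to 770 CPM in late disease, against 608, 790 and 946 CPM in controls. Here 5 late libraries lay below every control, with a log2 change of −0.59 ± 0.13.

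The beta-tubulin gene Tubb4b, a broadly expressed isotype, ran from 24.9 over a median of 44.2 to 65.1 CPM in late disease, against 46.9, 59.5 and 72.7 CPM in controls. The log2 change was −0.46 ± 0.13, and 4 of the 7 late libraries lay below every control. Tubb5, the beta isotype that predominates in many dividing and immune cells, had 73.6, 119 and 175 CPM in late disease, against 102, 140 and 220 CPM in controls, a log2 change of −0.28 ± 0.15. Late libraries 1 and 6 gave the lowest values of Tuba1a, Tuba1b, Tubb4b and Tubb5, and library 5 the highest in all 4 genes.

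**Figure D1:**
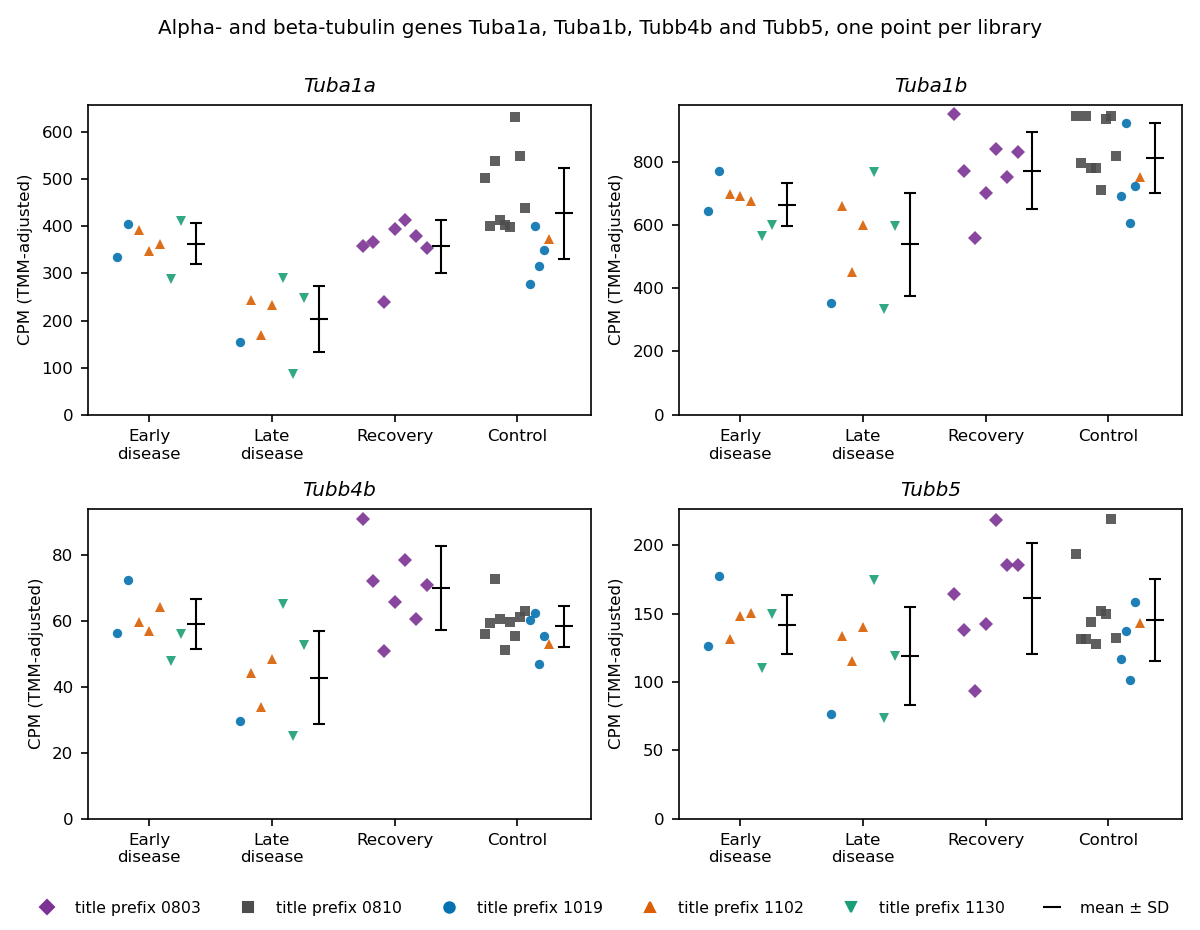
CPM of Tuba1a, Tuba1b, Tubb4b and Tubb5 in each library, by group (early disease, late disease and recovery, n = 7 each; control, n = 14); marker shape and colour give the title prefix, and bars are mean ± SD. Late libraries lie lowest for Tuba1a, with 6 of 7 below every control, and its controls of prefix 0810 average 472 and 481 CPM, against 343 CPM in those of prefixes 1019 and 1102.

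By edgeR's quasi-likelihood test over 13501 genes, 0 members were higher and 3 were lower in late disease (Tuba1a, Tuba1b and Tubb4b), where 15.4% of all genes tested were called, 9.01% higher and 6.39% lower. The median log2 change was −0.17 over the 10 members and 0.02 over all genes. These calls rest on the contrast used in the choice. Without late library 6 the same number of members, 3, was called, with Tuba1a at −0.94. The level of the controls varied with the title prefix: Tuba1a averaged 472 ± 96.1 CPM in the 6 rNLS8 controls, 481 ± 71.1 CPM in the 3 WT controls of prefix 0810 and 343 ± 48.6 CPM in the 5 WT controls of prefixes 1019 and 1102. Against those 5 controls alone the log2 change was −0.73 for Tuba1a, −0.46 for Tuba1b and −0.39 for Tubb4b, and 0 members were called. With the title prefix as a term 0 were called and Tuba1a stood at −0.82, and with the share of TPM outside the table as a covariate 1 was called, Tuba1a at −0.71. Within prefix 1019, late minus control was −1.10 for Tuba1a (1 late library, 4 controls), and within prefix 1102 it was −0.81 (3 late libraries, 1 control). Of 10 microglial markers 4 were lower and 1 higher in late disease, and the summed monocyte markers had a lowest, median and highest value of 28.8, 37.5 and 142 CPM in late disease, against 4.96, 12.4 and 25.5 CPM in controls. The part of these cells in the tubulin values was not tested.

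The remaining members had other values in late disease. Tuba1c, another close copy, averaged 68.1 ± 30.9 CPM in late disease and 61.6 ± 34.5 CPM in controls. Tuba4a, an alpha isotype known from muscle, brain and platelets, had 11.7, 12.9 and 46.5 CPM in late disease, against 5.85, 11.7 and 21.7 CPM in controls, with library 6 alone above every control. Its log2 change of 0.56 ± 0.24 was 0.16 without that library. Tubb6, a divergent beta isotype, had 14.03, 25.7 and 38.4 CPM in late disease, against 10.9, 18.6 and 30.8 CPM in controls. Its log2 change of 0.36 ± 0.20 turned to −0.03 with the share of TPM outside the table as a covariate and to −0.06 against the 5 controls of shared prefixes. Stmn1 had 6.99, 24.6 and 71.5 CPM in late disease, against 6.45, 16.4 and 25.9 CPM in controls, a log2 change of 0.75 ± 0.29. Late libraries 5 and 6 lay above every control for Stmn1, and library 1 near the lowest control. Leaving out late library 1 or control 2 brought Stmn1 past the threshold, and leaving out late library 6 took its change to 0.47.

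The composition of the alpha-tubulin pool was taken per library as the share of each alpha member in their summed TPM, a measure that does not depend on library scaling. Tuba1a made up 16.6, 26.5 and 29.0% of the pool in late disease (lowest, median and highest), against 32.5, 34.2 and 38.2% in early disease. All 7 late libraries lay below all 7 early ones. Tuba1a was chosen for its low values in these late libraries, so this separation is a description. How many of all genes separate the 2 groups was not counted. The shares averaged 34.3 ± 1.98% in early disease, 25.5 ± 4.12% in late disease, 30.2 ± 2.74% in recovery and 33.8 ± 2.68% in controls. In the 5 WT controls that share prefixes with late disease, the share was 31.6 ± 2.07%, with a lowest value of 28.7%. Within prefixes, late minus early was −4.62 points in 1019, −7.56 points in 1102 and −12.1 points in 1130. Tuba1b took 64.4 ± 2.15% in late disease and 59.4 ± 3.16% in early disease, Tuba1c 7.39 ± 2.95% in late and 5.35 ± 1.83% in early disease, and Tuba4a 2.74 ± 2.91% in late and 0.970 ± 0.351% in early disease. The summed alpha TPM was 924 ± 256 in late disease and 1279 ± 131 in controls. Summing the counts of Tuba1a, Tuba1b and Tuba1c, which removes the uncertainty of their split, gave 1096 ± 99.1 CPM in early disease, 811 ± 246 CPM in late disease and 1302 ± 214 CPM in controls. The log2 change of the sum was −0.68 ± 0.13 against controls and −0.43 ± 0.15 against early disease, and in the comparison with early disease the sum was not called.

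Late disease was next compared with early disease, whose libraries carry the same title prefixes. Tuba1a had 85.4, 233 and 291 CPM in late disease, against 289, 362 and 411 CPM in early disease, and 6 of the 7 late libraries lay below every early one. The log2 change was −0.82 ± 0.18, and late minus early was −1.25 within prefix 1019 (1 and 2 libraries), −0.79 within 1102 (3 and 3) and −0.91 within 1130 (3 and 2). Tuba1a was the 1 member called, among 0.741% of all genes tested, and it was chosen on the values of these same late libraries, so that the call is a description. The call was lost with the title prefix as a term, where the change was −0.85, with only these 2 groups in the fit, where it was −0.82, and without late library 3 or early library 5, 6 or 8. Leaving out any library gave a change between −0.94 and −0.70.

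Of the 9 other members, 0 passed the test by edgeR, DESeq2 or limma. An unadjusted p under 0.05 was found by edgeR for 3 of them, Tubb4b included, and for 1920 of all 13501 genes. Tubb4b averaged 42.7 ± 14.1 CPM in late disease and 58.9 ± 7.65 CPM in early disease, with 4 of 7 late libraries below every early one. Tubb4b led the choice for recovery, so its log2 change of −0.48 ± 0.15 here is a description. It was called without late library 5, but not with all libraries or without late library 6. Within prefixes the difference was −1.11, −0.53 and −0.23 in 1019, 1102 and 1130. Tuba1b differed by −0.30 ± 0.14 (adjusted p = 0.318) and Tuba4a by 0.60 ± 0.29 (adjusted p = 0.333). Stmn1 differed by −0.04 ± 0.34 (adjusted p = 0.977), with −2.04 within prefix 1019, −0.58 within 1102 and 1.12 within 1130, so that the prefixes went opposite ways. Sex was unevenly spread within prefixes: in 1102 all 3 late libraries were female and 2 of 3 early ones male, and in 1130 all 3 late libraries were male and both early ones female. The part of sex in these within-prefix values was not tested.

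In the beta-tubulin pool, Tubb6 took 7.32, 8.59 and 24.0% of the summed TPM in late disease, against 5.20, 6.79 and 7.57% in early disease. Of the late libraries, 6 lay above every early one, while libraries 3 and 6 held the 2 highest shares, 17.8% and 24.0%. The 5 WT controls of the shared prefixes had 9.13 ± 1.97% (6.52 to 11.8%), a range that held the 5 other late libraries. The means were 11.9 ± 6.41% in late disease and 6.63 ± 0.782% in early disease (n = 7 each), a difference of 5.29 points with p = 0.00117 by a two-sided exact permutation test and 0.0268 after Benjamini-Hochberg adjustment over 23 shares tested. This was the 1 share of 23 that passed. Among the 23, the tests of rNLS8 against WT controls had 6 and 3 libraries, too few to pass this adjustment on their own. The Tubb6 result uses the late libraries of the choice, and the summed beta TPM holds Tubb4b, which led the choice. Its p is therefore no independent support. Without late library 6 the difference was 3.28 points with an adjusted p of 0.0536, and the adjusted p was also 0.0536 without late library 2, 3, 4, 5 or 7 or early library 3, 4, 5, 6, 7 or 8, and with shares of expected counts. Within prefixes, late minus early was 0.076 points in 1019, 4.57 points in 1102 and 8.22 points in 1130. Tubb6 itself had a median of 25.7 CPM in late disease and 20.8 CPM in early disease (log2 change 0.33 ± 0.23, adjusted p = 0.564), while the summed beta TPM was 265 ± 78.2 in late disease and 348 ± 41.5 in early disease. The beta shares of Tubb2a, Tubb2b and Tubb5 differed by −6.91 to 2.82 points, with adjusted p of at least 0.668. That of Tubb4b differed by −1.69 points, given as a description because Tubb4b led the choice.

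**Figure D2:**
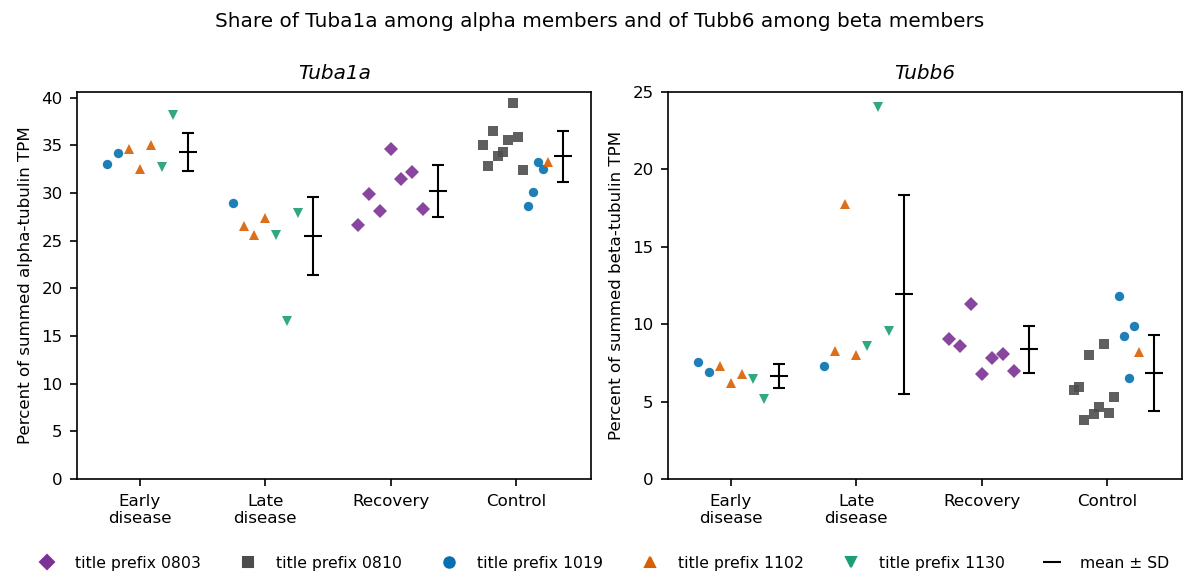
Share of Tuba1a in the summed TPM of the 4 alpha members and of Tubb6 in that of the 5 beta members, in percent, per library and group; marker shape and colour give the title prefix, and bars are mean ± SD. All 7 late libraries lie below all 7 early ones for Tuba1a, which was chosen on these late libraries, and 2 late libraries reach 17.8% and 24.0% for Tubb6.

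In recovery, with the transgene silenced for 1 week, the 2 members set apart from controls were Stmn1 and Tuba4a. Stmn1 had 16.3, 36.5 and 96.9 CPM in recovery, against 6.45, 16.4 and 25.9 CPM in controls, and 5 of the 7 recovery libraries lay above every control. Means were 43.4 ± 26.6 CPM in recovery and 16.7 ± 6.40 CPM in controls, with a log2 change of 1.30 ± 0.28. Tuba4a had 15.5, 21.1 and 38.3 CPM in recovery, against 5.85, 11.7 and 21.7 CPM in controls, with 3 recovery libraries above every control and a log2 change of 1.01 ± 0.24. These 2 members were called higher and 0 lower, where 3.98% of all genes tested were called, 2.87% higher, and the contrast was one of those behind the choice. The median log2 change was 0.20 over the members and −0.01 over all genes. Against the 6 rNLS8 controls 1 member was called, Stmn1 at 1.40, and against the 3 WT controls of the same diet 0 were, with Stmn1 at 1.07 and Tuba4a at 1.17. With the share of TPM outside the table as a covariate 0 were called, with Stmn1 at 1.24 and Tuba4a at 1.02.

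Tubb4b, for which recovery was noted, averaged 69.9 ± 12.8 CPM in recovery and 58.3 ± 6.19 CPM in controls. Its range was 50.8, 70.8 and 90.8 CPM in recovery, against 46.9, 59.5 and 72.7 CPM in controls, so that only 2 recovery libraries exceeded every control, and its log2 change was 0.26 ± 0.12. The difference from late disease, where Tubb4b was at 42.7 ± 14.1 CPM, was larger, at 0.72 ± 0.15. Tuba1a averaged 358 ± 56.2 CPM in recovery and 428 ± 96.8 CPM in controls, a log2 change of −0.26 ± 0.16 that came to 0.03 with the share of TPM outside the table as a covariate. Tuba1b, at 773 ± 123 CPM in recovery and 812 ± 111 CPM in controls, had a log2 change of −0.07 ± 0.12, which was 0.07 with that covariate. Tuba1c had 89.1 ± 12.3 CPM in recovery and 61.6 ± 34.5 CPM in controls (0.54 ± 0.26).

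Set against late disease, 2 members, Tuba1a and Tubb4b, were called higher in recovery and 0 lower, among 0.585% of all genes tested. Both genes were chosen on these late and recovery values, so the calls describe the choice. Tuba1a ran from 240 over a median of 367 to 414 CPM in recovery, against 85.4, 233 and 291 CPM in late disease, and 6 of 7 recovery libraries lay above every late one. For Tubb4b, 5 of 7 did. The log2 change was 0.80 ± 0.18 for Tuba1a, 0.72 ± 0.15 for Tubb4b, 0.52 ± 0.14 for Tuba1b and 0.42 ± 0.17 for Tubb5. The call of Tuba1a was lost without recovery library 2, 3, 5, 7 or 9 or late library 1, 3 or 6, with changes between 0.68 and 0.92. That of Tubb4b was lost without recovery library 2, 3, 7 or 9 or late library 1 or 3, with changes between 0.63 and 0.85, while Tuba1b was gained without recovery library 4 or late library 5. Recovery and late disease share no title prefix.

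**Figure D3:**
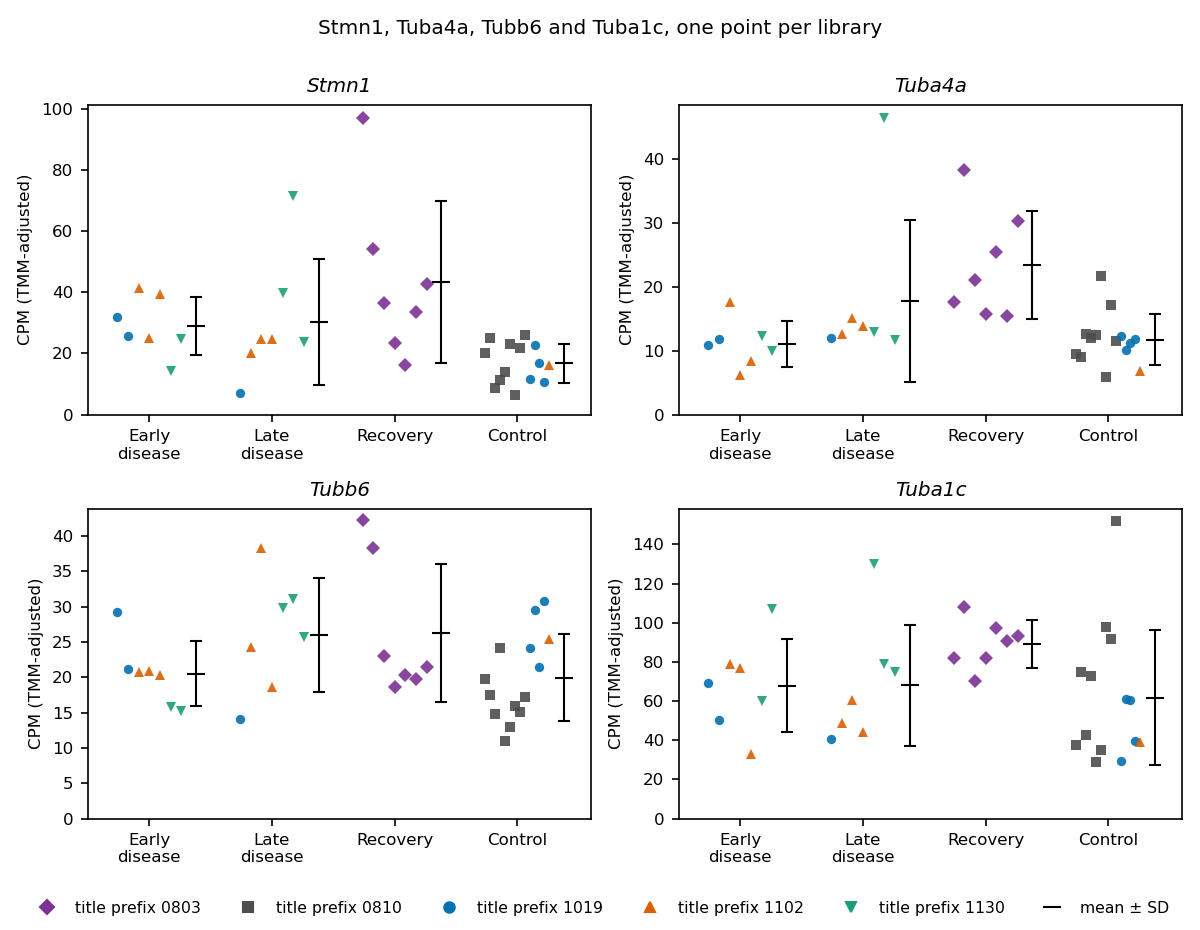
CPM of Stmn1, Tuba4a, Tubb6 and Tuba1c in each library, by group (early disease, late disease and recovery, n = 7 each; control, n = 14); marker shape and colour give the title prefix, and bars are mean ± SD. In recovery 5 libraries lie above every control for Stmn1 and 3 for Tuba4a, and late library 6, at 46.5 CPM, is the highest of all for Tuba4a.

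Markers of other cells and of division moved with recovery. Over all genes tested, 2.87% were called higher in recovery than in controls and 1.1% lower. Of 13 neutrophil markers, 11 were tested and 10 were higher in recovery than in controls, and their summed CPM had a lowest, median and highest value of 792, 2483 and 7681 in recovery, against 456, 579 and 853 in controls. Of 11 monocyte markers, 8 were tested and 7 were higher, with sums of 65.4, 167 and 625.4 CPM in recovery and 4.96, 12.4 and 25.5 CPM in controls. The 3 recovery libraries with the highest neutrophil sums, libraries 3, 9 and 7 at 7681, 6952 and 5135 CPM, were also the 3 highest for Tuba4a, at 38.3, 30.4 and 25.4 CPM. Late library 6, the highest of all for Tuba4a at 46.5 CPM, had a neutrophil sum of 720 CPM, within the range of controls. Its monocyte sum of 142 CPM was the highest in late disease. In controls the listed neutrophil markers S100a9 and Ngp had medians of 0.115 and 0.122 CPM. The neutrophil sum of controls thus came mostly from other genes of the list, and sums at that level are no measure of neutrophils. Of 40 proliferation genes, 21 were higher in recovery than in controls and 0 lower, with sums of 612, 701 and 1337 CPM in recovery and 471, 490 and 666 CPM in controls. Recovery library 2 had the highest proliferation sum, 1337 CPM, and the highest Stmn1, 96.9 CPM, and library 3 came second in both, at 793 and 54.1 CPM. Library 7, next in proliferation sum at 721.8 CPM, had the lowest Stmn1 of recovery, 16.3 CPM. Over all 35 libraries, deviations of Stmn1 and of the mean of the proliferation list from group means had r = 0.46. The same r was 0.64 for Tubb6, 0.46 for Tubb2a and 0.44 for Tubb4b, and −0.05 to 0.40 for the other members. Tuba4a had r = 0.31 to the mean of the neutrophil list. The part of neutrophils, monocytes and dividing cells in these values was not tested.

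**Figure D4:**
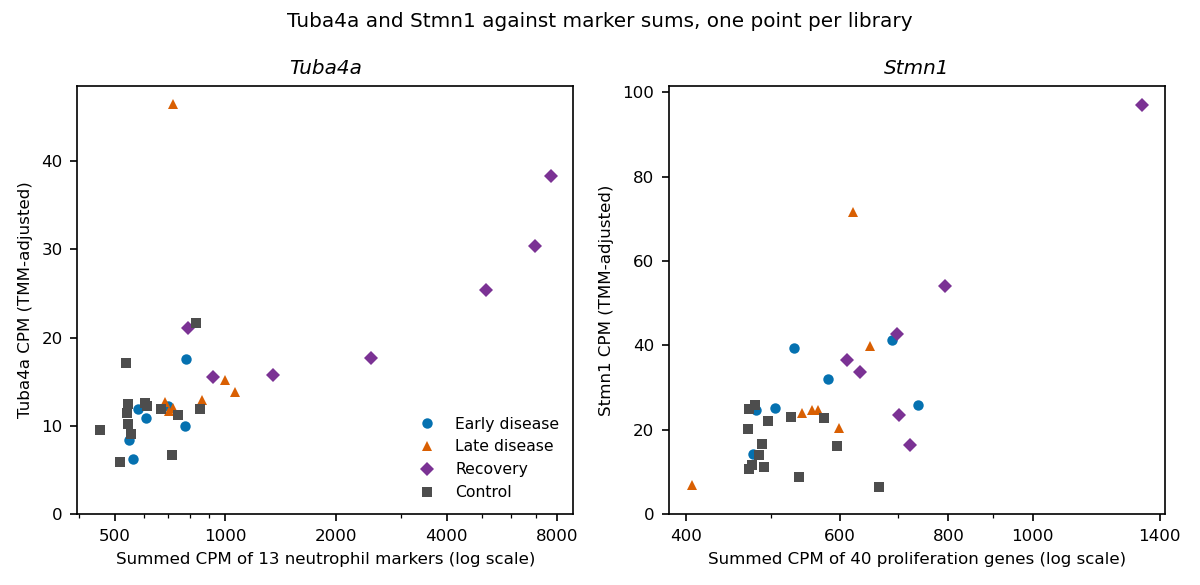
Left, Tuba4a CPM against the summed CPM of 13 neutrophil markers; right, Stmn1 CPM against the summed CPM of 40 proliferation genes; horizontal axes are logarithmic and each point is 1 of 35 libraries, by group. The 3 recovery libraries with the highest neutrophil sums have 25.4 to 38.3 CPM of Tuba4a, and recovery library 2 is highest on both axes on the right. In controls the neutrophil sum is already 456 to 853 CPM.

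After 2 weeks of transgene expression, in early disease, 0 members passed the test by edgeR or DESeq2 against controls, and 0.00741% of all genes tested were called. By edgeR, 2 members and 1703 of all 13501 genes had an unadjusted p under 0.05. Stmn1 had 14.3, 25.9 and 41.4 CPM in early disease, against 6.45, 16.4 and 25.9 CPM in controls, with 3 of 7 early libraries above every control. Its log2 change of 0.80 ± 0.29 had an adjusted p of 0.232 by edgeR, and it was 0.96 within prefix 1019 (2 and 4 libraries) and 1.10 within 1102 (3 and 1). By limma on log2(TPM + 1), Stmn1 passed at 1.04 (adjusted p = 0.0322), on a scale where the median of all genes stood at 0.22. Summed proliferation genes had 476, 532 and 738 CPM in early disease, against 471, 490 and 666 CPM in controls, and 0 of the 40 were called, with 8 at an unadjusted p under 0.05. Tuba1b averaged 665 ± 67.8 CPM in early disease and 812 ± 111 CPM in controls, a log2 change of −0.29 ± 0.12 (adjusted p = 0.321), which was −0.15 against the 5 controls of shared prefixes. Tuba1a had a log2 change of −0.24 ± 0.16 (adjusted p = 0.553), with a value of 0.09 against those 5 controls and 0.03 by limma on log2(TPM + 1). The 7 remaining members had log2 changes of −0.04 to 0.16, with adjusted p of at least 0.859. Of the 9 tubulin shares, 0 passed two-sided permutation tests in early disease against controls, and 0 had an unadjusted p under 0.05 (adjusted p at least 0.668).

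**Figure D5:**
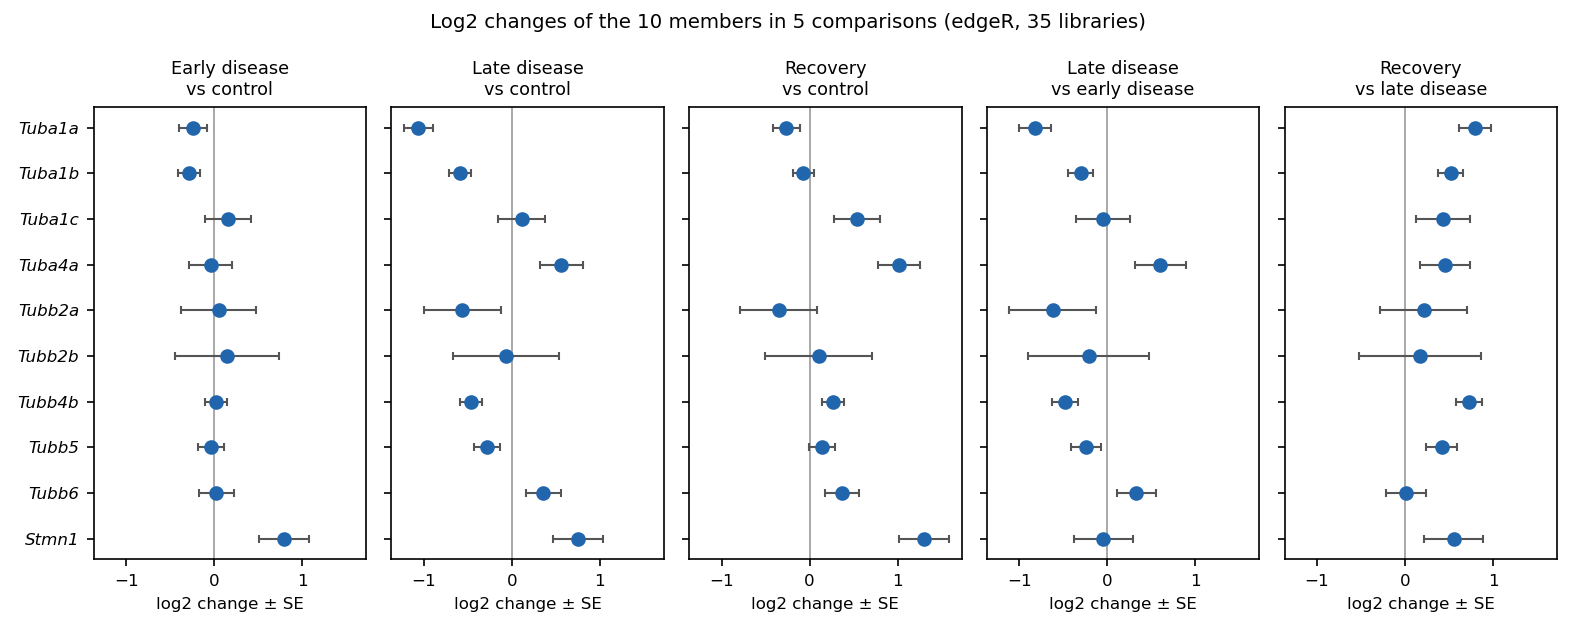
Log2 change with its SE for each of the 10 members in 5 comparisons, fitted over 35 libraries with edgeR. Tuba1a lies at −1.06 in late disease against control and at 0.80 in recovery against late disease, and the bars of Tubb2a and Tubb2b are the widest, with SEs of at least 0.43.

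The transgenic background without transgene expression was compared in the controls of prefix 0810, the 6 rNLS8 libraries continuously on DOX against the 3 WT libraries. Of the 10 members, 0 were called by edgeR, DESeq2 or limma and 0 had an unadjusted p under 0.05. Of 12958 genes, 0.00772% were called and 508 had an unadjusted p under 0.05 by edgeR. Stmn1 averaged 17.1 ± 7.65 CPM in rNLS8 and 17.96 ± 8.29 CPM in WT controls, and Tubb4b 58.5 ± 4.36 CPM in rNLS8 and 62.7 ± 8.82 CPM in WT controls. The log2 change was −0.04 ± 0.17 for Tuba1a and −0.12 ± 0.12 for Tuba1b, the most precise of these values, and −0.79 ± 0.66 for Tubb2a. Diet and genotype differ together in this comparison. Between female and male libraries, 0 members were called by edgeR, DESeq2 or limma, with 0.0593% of genes called, 0.0222% higher and 0.037% lower. By edgeR 678 of all 13501 genes had an unadjusted p under 0.05, and so did 1 member. That was Stmn1, lower in females by a log2 change of −0.54 ± 0.22 (adjusted p = 0.893).

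Tubb2a and Tubb2b, which are linked on chromosome 13 and known from neurons, varied widely between libraries of a group. Tubb2a spanned 7.38 to 193 CPM in recovery and 2.46 to 170 CPM in the 14 controls. In the rNLS8 control library 7 it was at 2.46 CPM while Tubb2b was listed at 0, and in recovery library 7 it was at 7.38 CPM with Tubb2b again at 0. Late library 6 had 16.2 and 1.48 CPM, recovery library 8 had 27.7 and 1.47 CPM, and the WT control library 10 had 32.5 and 0.302 CPM. In recovery libraries 3 and 2, Tubb2a was at 193 and 169 CPM and Tubb2b at 21.4 and 31.6 CPM. The low libraries came from 3 groups, both genotypes and 4 title prefixes, and Tubb5, of the same subunit, was at 150 CPM in rNLS8 control 7 and 219 CPM in recovery library 7. Over 35 libraries the deviations of Tubb2a and Tubb2b from their group means had r = 0.93, a value that shared reads can raise. The sum of both genes was 78.9 ± 36.5 CPM in late disease and 108 ± 47.0 CPM in controls (log2 change −0.51 ± 0.45).

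Among libraries of the same group, Tuba1a, Tuba1b, Tubb4b and Tubb5 varied together. The deviations of log2 CPM from group means had r = 0.88 between Tuba1b and Tubb4b, 0.85 between Tuba1a and Tuba1b, 0.80 between Tuba1b and Tubb5, and 0.74 between Tuba1a and Tubb4b (n = 35 libraries, which share scaling and depth). The other members stood outside this set, also Tubb2a, which is more abundant than Tubb4b. Their r to Tuba1a was −0.41 for Tuba4a, −0.23 for Tubb6, −0.17 for Stmn1, −0.03 for Tubb2b, 0.03 for Tubb2a and 0.29 for Tuba1c. Stmn1 and Tubb6 had r = 0.45 to each other. The genes whose deviations were most like those of Tuba1a were P4ha1, Xbp1, Kdelr2, Orai1 and Impa1, with r from 0.84 to 0.85 and Spearman's rho from 0.72 to 0.83. P4ha1 encodes a collagen prolyl hydroxylase, Xbp1 a transcription factor of the unfolded protein response, Kdelr2 a retrieval receptor of the endoplasmic reticulum, Orai1 a calcium channel and Impa1 an inositol phosphatase. For Tubb4b they were Arl6ip1, Rpn1, Actg1, Pdia6 and Dynll1, with r from 0.79 to 0.80 and rho from 0.68 to 0.77. Dynll1 is a light chain of the motor dynein and Actg1 is gamma actin.

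Promoters from RefSeq (GRCm38.p6, 250 bases before to 50 after the start of the gene) were matched for 7 of the tubulin members. Both strands were searched for 3 motifs. The first motif, CCAAT, was found in 4 of the 7 promoters and in 37.4% of all 32851 mouse promoters in the table. The GC box, searched as GGGCGG, was found in 6 of the 7 and in 35.7% of all promoters. The TATA box, searched as TATAAA, was found in 2 of the 7 and in 13.6% of all promoters. The promoter of Tubb4b held 5 matches to the first motif, 2 GC boxes and 1 TATA box, all in capitals in its sequence, which is shown because Tubb4b led the choice for recovery (chr2:25224653-25224952, minus strand).
Tubb4b: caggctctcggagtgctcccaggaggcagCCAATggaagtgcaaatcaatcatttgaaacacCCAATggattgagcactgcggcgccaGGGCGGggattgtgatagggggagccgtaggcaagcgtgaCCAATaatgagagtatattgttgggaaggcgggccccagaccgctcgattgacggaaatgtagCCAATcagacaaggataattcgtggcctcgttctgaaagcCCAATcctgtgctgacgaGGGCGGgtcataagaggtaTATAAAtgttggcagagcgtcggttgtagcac
The promoters of Tuba1a and Tuba1c held 1 match to the first motif each, that of Tubb5 held 2, and those of Tuba1b, Tuba4a and Tubb2a held none.

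Other genes of the microtubule system were taken from lists of known function, and their counts in late disease stand beside 9.01% of all genes called higher and 6.39% called lower. These late disease calls depended on the controls: over all genes 2080 were called, against 191 with the 5 controls of shared prefixes and 2 with the title prefix as a term. In late disease against controls, 4 of 23 tubulin folding factors were lower and 0 higher. They were Vbp1, a prefoldin subunit, at −0.61 ± 0.12, the tubulin cofactor Tbcb at −0.37 ± 0.10, the chaperonin subunit Cct4 at −0.32 ± 0.08 and its regulator Pdcl3 at −0.31 ± 0.10. The median log2 change of the 23 was −0.12, against 0.02 over all genes. Of 11 genes tied to the tubulin feedback, 2 were lower, the deadenylase subunits Cnot6l at −0.39 ± 0.13 and Cnot8 at −0.23 ± 0.08. Of 31 dynein and kinesin genes 4 were higher and 2 lower, with Dynll1 at −0.87 ± 0.22 and Dctn1, a dynactin subunit, at 0.61 ± 0.16. Of 21 microtubule-associated proteins tested, Map4 (0.43 ± 0.12) and Map7d1 (0.40 ± 0.14) were higher and the plus-end protein Mapre1 was lower (−0.20 ± 0.06). Of 13 genes of the gamma-tubulin ring and minor tubulins tested, Tubgcp2 was higher (0.61 ± 0.13) and Mzt2 lower (−0.42 ± 0.12). Of 20 tubulin-modifying and severing enzymes tested, the deacetylase Sirt2 was the 1 called, at 0.43 ± 0.11. Of 7 further alpha- and beta-tubulin genes 1 was tested, Tubb4a, and it was not called (0.13 ± 0.89), while none of 3 other stathmin genes had enough counts.

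In the list of actin genes, 5 of 22 were higher and 0 lower in late disease against all controls, beside the same 9.01% over all genes, among them Capg, which caps actin filaments, at 1.10 ± 0.30 and Myh9, a non-muscle myosin, at 0.68 ± 0.14. In recovery against controls, 0 genes were called in the lists of folding factors, ring and minor tubulins, microtubule-associated proteins, modifying enzymes, feedback genes and motors by edgeR, and 3, 0, 1, 1, 3 and 4 of them had an unadjusted p under 0.05. So did 2353 of all 13501 genes tested. In the actin list 4 of 22 were higher in recovery, beside 2.87% of all genes tested. They included the intermediate filament gene Vim at 1.81 ± 0.24 and Gsn, which severs actin, at 1.35 ± 0.30. In late against early disease, 0 genes of these 7 lists were called by edgeR, and 3, 1, 4, 1, 1, 4 and 1 had an unadjusted p under 0.05, with the actin list last. Over all 13501 genes tested, 1920 had such a p in that comparison.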

How the data were processed

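The authors deposited expected counts, estimated per gene and not always whole, and TPM values for 45706 genes and 35 libraries of sorted CD11b and CD45 positive cells, and a design table with a count of effective alignments, which was not tested. Per the submitters' processing notes, the tools were RSEM and DESeq2 and the genome was mm10. Their versions were not given in the sources used here. Of the deposited values 84.67% were whole, and all were rounded. Symbols matched for 45143 genes.

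Groups came from the phenotype labels. edgeR 4.0.16 (R 4.3.3) fitted group and sex over 35 libraries with TMM, its filter on low counts and a quasi-likelihood F test. Calls are at a Benjamini-Hochberg adjusted p under 0.05 over all 13501 genes, and CPM are scaled to TMM-adjusted totals. Alternatives were DESeq2 1.42.0, limma 3.58.1 on log2 of deposited TPM plus 1 or 0.1 (genes at 1 TPM in 6 libraries), other controls, covariates, and each library left out. Isotype shares were compared with permutation tests (scipy 1.17.1). Sex followed the labels, which differ from the design table in 2 libraries. The edgeR fit was tested on simulated data. p-values measure the spread between libraries.

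The members, lists and tests were chosen with earlier results of these data known. Named genes were all members, up to 4 called genes per list with the largest change, and the 5 genes most like Tuba1a and Tubb4b. The sequence of Tubb6 is not shown, and proteins were not used here.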

Additional observations from a re-analysis of the deposited data

Results flagged for a closer look

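In groups of 7 libraries, 4 of 30 member and group combinations held a library far from the others; chance gives about 1 in 20. Tuba1a was at 239.8 CPM in recovery library 4, below the next value of 353.1 CPM. Tuba1c was at 129.8 CPM in late library 5, above the next value of 78.91 CPM. Tuba4a was at 46.5 CPM in late library 6, above the next value of 15.17 CPM. Tubb6 was at 29.23 CPM in early library 1, above the next value of 21.17 CPM.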

How the results depend on the processing

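Counts of members called changed by over 1.5 times, or in which members they held, as follows. In early disease against control, limma on log2(TPM + 1) or log2(TPM + 0.1) called 1, on a scale where the median of all genes moved by 0.22 and 0.26. In late disease against control, 1 was called with the share of TPM outside the table as a covariate, 0 with the title prefix as a term and 0 against the 5 controls of prefixes 1019 and 1102. There were 2, both lower, against the 8 WT controls and by limma without a filter, and 1 higher with 2 lower by limma on either TPM scale (Tuba4a higher) and against the 6 rNLS8 controls (Tubb6 higher). In recovery against control, 0 were called with that covariate, 1 against the 6 rNLS8 controls, 0 against the 3 WT controls of the same diet and 3 against the 8 WT controls (Tuba1c added). In late against early disease, 0 were called with the prefix as a term and 0 with the 2 groups alone, and in recovery against late disease 0 with the 2 groups alone and 3 by DESeq2 (Tuba1b added). The cause was not tested. Replicate numbers did not pair libraries (37 same-number pairs, median r 0.007, lowest −0.16), and with the replicate block 0 members were called in recovery against late disease. Leaving out each library gave 0 to 2 calls in late against early disease, 0 to 3 in recovery against late disease, 3 to 4 in late disease against control, and 0 to 1 for isotype shares, of which 0 passed on shares of expected counts. Of 897 values under other settings 864 kept their side of the threshold, as did 2960 of 2995 with 1 library left out. Among values past the test in either setting 0 changed sign. Of all 3892 values, 170 passed in neither setting and had the other sign. Over all genes, early disease against control had 1 call by edgeR, 168 by DESeq2, 1390 by limma on log2(TPM + 1) and 735 against the 6 rNLS8 controls. Late disease against control had 2080 calls, but 252 with the TPM covariate, 191 against the 5 controls of shared prefixes and 2 with the prefix term. Recovery against control had 537 calls, 862 by DESeq2 and 253 with that covariate. Late against early disease had 100 calls, 354 by DESeq2 and 15 with the 2 groups alone, and recovery against late disease had 79, 426 and 14 in the same order. Female against male had 8 calls and 18 by DESeq2, and rNLS8 against WT controls had 1 and 95.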
